A study of Caenorhabditis elegans with 3 samples.

Results

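The genes described are the 6 that form the core of programmed cell death in Caenorhabditis elegans and its p53-like trigger in the germ line: egl-1, ced-13, cep-1, ced-9, ced-4 and ced-3. They were taken by symbol from the WBcel235 annotation, as the known core of the pathway and with earlier results of these data known, and make up 6 of the 19985 protein-coding genes to which peaks were assigned. The measurements are chromatin immunoprecipitation followed by sequencing (ChIP-seq) of DPL-1, the DP protein with which E2F factors bind DNA, in 3 biological replicates of 1 group. Per the labels, the animals were whole young adult hermaphrodites of strain YL507, whose age is given as unknown, a transgenic line that stably expresses DPL-1 with GFP and FLAG at its C terminus. The labels describe an insertion aimed at dpl-1 and an immunoprecipitation with an antibody to GFP, although their antibody field names dpl-1. The sources used here do not give whether untagged DPL-1 is also made or how many animals went into a sample. A candidate control is listed in the labels but was not analysed here, and how the authors used it is not stated. No level at a member could therefore be compared with a control. Whole worms mix germ line and soma, so a weak peak in many cells and a strong peak in few cells cannot be told apart.

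Cell death in this worm runs through a short chain of proteins. CED-3 is the caspase that dismantles the cell, CED-4 is the adaptor that activates it, and CED-9, a BCL-2 protein on mitochondria, holds CED-4 back. EGL-1 and CED-13 are small BH3-only proteins that bind CED-9 and set CED-4 free. EGL-1 triggers most deaths in the soma, and after DNA damage in the germ line the p53-like factor CEP-1 switches on egl-1 and ced-13. E2F, DP and retinoblastoma-like proteins are known regulators of germline apoptosis in this species, and the question here is where DPL-1 was bound around the core genes.

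None of the 6 genes had a DPL-1 peak of the authors' high-confidence list at its own 5' end. That list, called the IDR list here, holds 3295 peaks derived by the irreproducible discovery rate (IDR) procedure, which weighs how alike peaks rank in replicates. Not every listed peak ranked alike, since 40.9% were among the strongest 3295 of all 3 replicates. A peak was counted at a 5' end when its summit lay within 500 bp of the start of the gene record, and 11.8% of all protein-coding genes had such a peak. With 6 genes, a count of 0 has an exact 95% binomial (Clopper-Pearson) upper bound of 45.9%. A common rule by which a count of 0 allows up to 3 gives 3 of the 6 genes, and is only rough for so few genes. The members therefore cannot be told apart from the background by this count. None had an IDR summit further inside the gene, over 500 bp from the 5' end, where 2.88% of all genes had one. In each replicate's own 3295 strongest peaks the count at 5' ends was again 0 of 6, beside 9.94%, 11.7% and 10.3% of all genes in replicates 1, 2 and 3.

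The genes nevertheless fell into unlike situations. The ced-9 and ced-4 genes each lay downstream of another gene on the same strand whose own 5' end had an IDR peak. An IDR peak lay 1923 bp upstream of ced-3, in sequence with no annotated gene other than possible piRNA genes, which were left out. The nearest IDR summits to cep-1, ced-13 and egl-1 were 5511, 12735 and 16978 bp from their 5' ends. In the map of summits at the 6 loci these are visible as filled marks left of the 500 bp band for the first 3 genes and their absence there for the other 3.

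**Figure D1:**
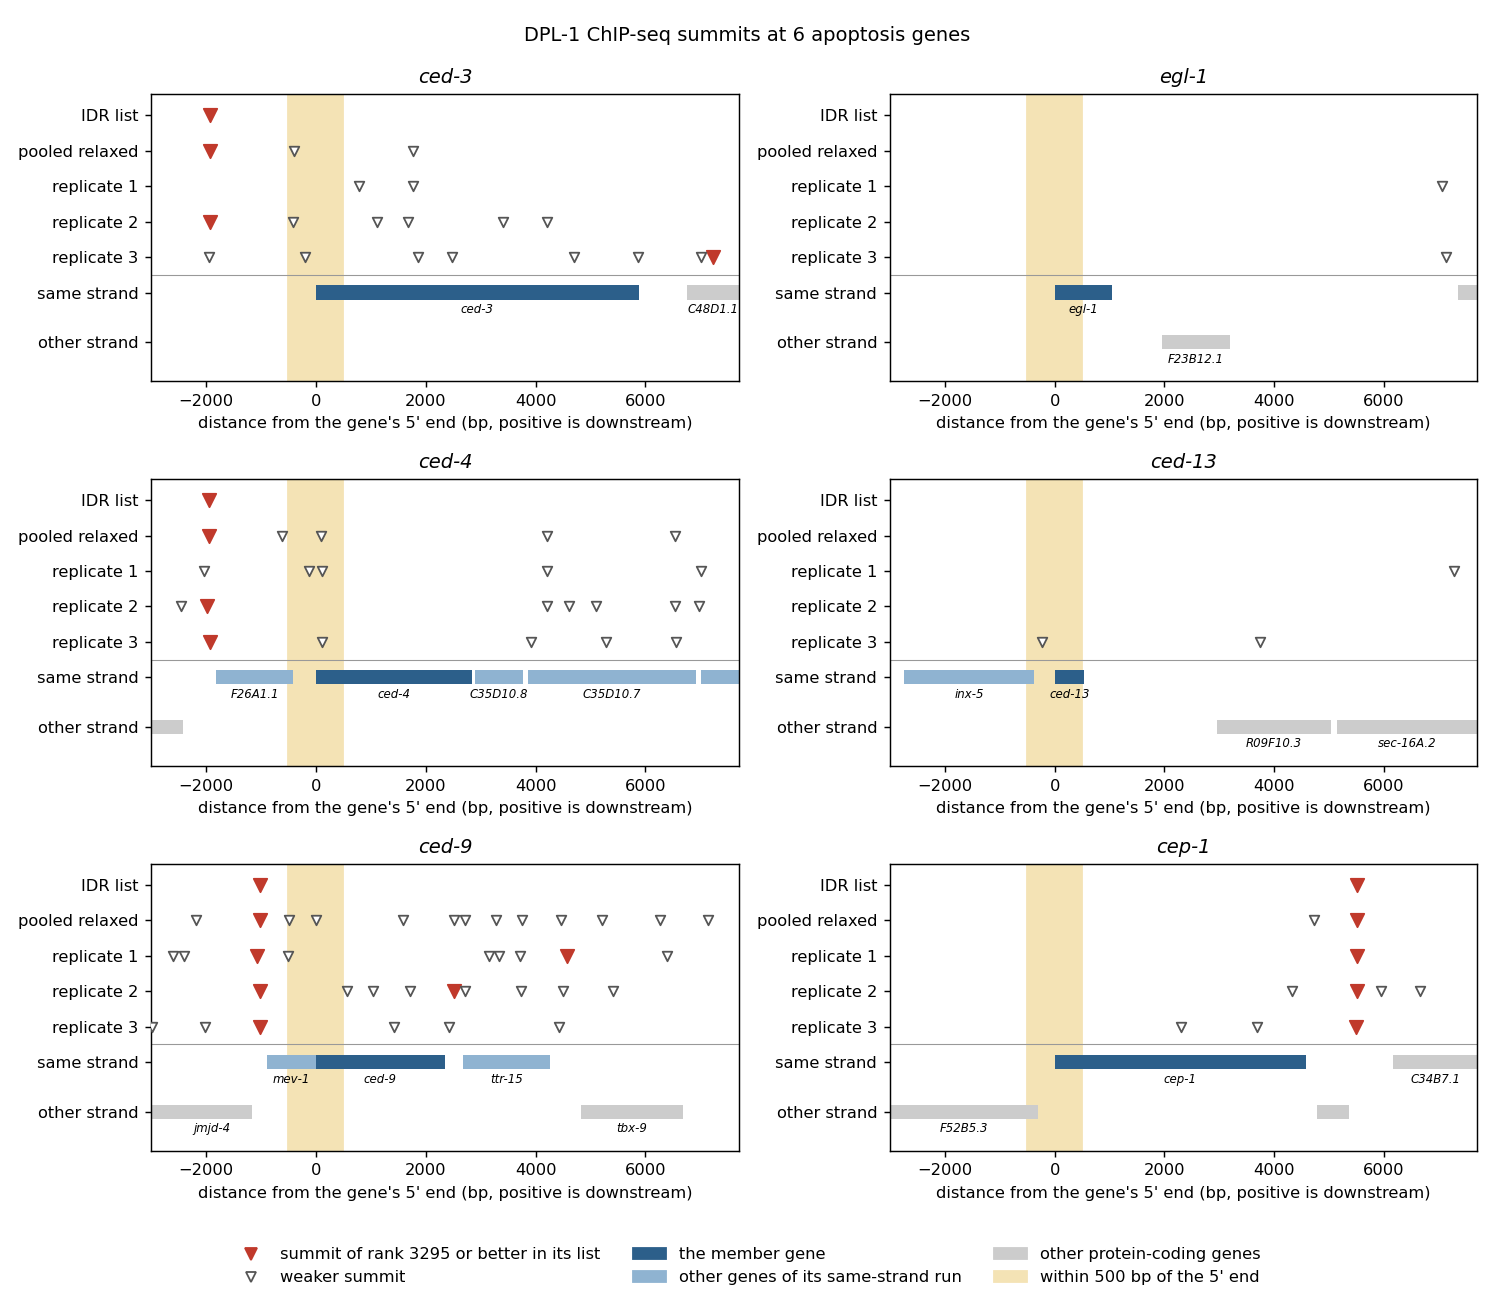
Summits of 5 peak lists (rows) around the 6 genes, by distance in bp from each gene's 5' end, with protein-coding genes drawn to scale below by strand. Filled marks are summits of rank 3295 or better in their list and open marks are weaker ones. The yellow band, within 500 bp of the 5' end, holds open marks at ced-3, ced-4, ced-9 and ced-13, no marks at egl-1 and cep-1, and filled marks at none of the 6 genes.

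The strongest peak beside a member was the one that heads the ced-9 gene run. The ced-9 gene (WBGene00000423, III, 10335172 to 10337522, plus strand, ce11) starts 3 bp after the end of mev-1 (III, 10334277 to 10335168, plus strand), which encodes the cytochrome b subunit of succinate dehydrogenase, also called cyt-1. These genes are known to be transcribed together as an operon. The join between them is shown because the gene records nearly touch: the capitals are the 3 bases between the gene records, and the ced-9 record begins at its first coding base (III:10335138-10335202, plus strand).
mev-1 to ced-9 junction: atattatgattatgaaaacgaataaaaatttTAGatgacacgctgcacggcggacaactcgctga

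The IDR peak lay before mev-1, at III, 10334023 to 10334257, with its summit at 10334150. That is 1022 bp upstream of ced-9, 127 bp upstream of mev-1 and 132 bp upstream of jmjd-4, a gene named for a jumonji domain that runs the other way, in sequence with no annotated gene. The peak's full sequence is shown on the strand of ced-9 (III:10334023-10334257) because it is the strongest of the DPL-1 peaks that head a member's run. Its capitals mark 3 matches to the cell cycle homology region (CHR) element, TTCGAA or TTTGAA on either strand, which is known to be read by LIN-54, a DNA-binding member of the DREAM complex to which DPL-1 also belongs.
ced-9 run peak: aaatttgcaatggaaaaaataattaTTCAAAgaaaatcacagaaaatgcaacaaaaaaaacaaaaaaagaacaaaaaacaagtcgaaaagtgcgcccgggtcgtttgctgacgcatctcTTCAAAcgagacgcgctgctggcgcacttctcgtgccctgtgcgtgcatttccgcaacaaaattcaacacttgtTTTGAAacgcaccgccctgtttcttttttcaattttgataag

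The signal of this peak, the authors' measure of peak strength, was 294 in the IDR list and it ranked 192 of 3295. In the replicates' own lists its rank was 202 in replicate 1, 262 in replicate 2 and 123 in replicate 3, with signals of 71.3, 155 and 79.5 on scales that differ between lists. It was thus among the strongest peaks of every replicate, and the replicate summits fell within 41 bp of each other. The peak lies between the divergent 5' ends of jmjd-4 and mev-1, and the run that mev-1 heads goes on with ced-9 and the transthyretin-related gene ttr-15. These data do not assign it to any 1 of those genes.

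At ced-9 itself there was little. The pooled relaxed list, which holds 30000 peaks and background regions from the combined reads and was made as input for IDR, had 2 summits within 500 bp. The stronger lay 481 bp upstream in a coding exon of mev-1 (signal 9.95, rank 23193) and the other 4 bp upstream in its 3' untranslated region (signal 9.05, rank 25483). The weakest peak of the IDR list had a signal of 45.7. No replicate had a summit within 500 bp of ced-9 in its own relaxed list, though replicate 1 had 1 just outside, 507 bp upstream (rank 26490). Inside the gene, 1 pooled relaxed summit lay in an intron, 1583 bp from the 5' end (signal 8.44). Replicate 1 had no summit over 500 bp inside ced-9, replicate 2 had 3, of ranks 14746, 26055 and 26930, and replicate 3 had 1, of rank 21516.

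The ced-4 gene showed a similar arrangement with a weaker peak. It (WBGene00000418, III, 4852325 to 4855171, plus strand) starts 414 bp after F26A1.1 on the same strand and is followed by C35D10.8, C35D10.7 and C35D10.6, with gaps of 46, 91 and 94 bp. The IDR peak lay before F26A1.1, at III, 4850220 to 4850523, with its summit 1953 bp upstream of ced-4, 135 bp upstream of F26A1.1 and 465 bp upstream of nonu-1, which runs the other way. The bases around its summit are shown on the strand of ced-4 (III:4850322-4850422), with the CHR match in capitals, 12 bp from the summit.
ced-4 run peak, summit window: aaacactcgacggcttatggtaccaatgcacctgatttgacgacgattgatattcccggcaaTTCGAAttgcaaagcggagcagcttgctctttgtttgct

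Its signal was 76.8, below the IDR median of 83.4, and its rank 1840. The replicates ranked it 4759, 2041 and 1120 in that order, with signals of 10.6, 44.1 and 25.1 on scales that differ between lists. Replicate 1 was therefore the one in which the peak missed the strongest 3295, and its summit there lay 85 bp from the IDR summit. Whether ced-4 is transcribed from that distant 5' end, from its own, or from both was not measured.

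Of the 6 genes, ced-4 had the strongest summit at its own 5' end, though far under the IDR threshold. The pooled relaxed summit lay 100 bp inside the gene, in a coding exon, with a signal of 17.8 and rank 11339. Replicate 1 had 2 summits there, the stronger 120 bp upstream with rank 10701, replicate 2 had none, and replicate 3 had 1 at 105 bp downstream with rank 15311. Replicates 1 and 3 thus each held a weak summit and replicate 2 did not.

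The run rule was applied to all genes. A run was a chain of protein-coding genes on the same strand with gaps under 500 bp, which is a reading of the annotation and not a measured operon. With every gene judged at the 5' end of the first gene of its run, 2 of the 6 members had an IDR peak, beside 14.8% of all genes. Of the 3 members that are not first in their run, ced-4, ced-9 and ced-13, the first gene had an IDR peak for 2, beside 25.4% of the 3798 genes that are not first in a run. Both counts are too small to set the members apart.

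The caspase gene ced-3 had an intergenic IDR peak and weak summits elsewhere. The gene (WBGene00000417, IV, 13198261 to 13204137, minus strand) has no protein-coding neighbour on its strand within 500 bp upstream. The IDR peak lay at IV, 13205908 to 13206211, with the summit 1923 bp upstream of the 5' end. That summit was in sequence with no annotated gene, piRNA genes left out, and with no other protein-coding 5' end within 500 bp. Its summit window is shown on the strand of ced-3 (IV:13206010-13206110), again with the CHR match in capitals. On the plus strand, opposite to the one shown, that match starts 10 bp from the summit.
ced-3 upstream peak, summit window: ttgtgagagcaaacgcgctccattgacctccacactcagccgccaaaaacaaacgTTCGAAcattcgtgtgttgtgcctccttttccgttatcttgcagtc

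This peak was carried mainly by replicate 2. Its signal was 57.8 and its rank 2549. It ranked 2000 in replicate 2 (signal 44.7) and 12929 in replicate 3 (signal 6.65), while replicate 1 had no summit within 100 bp of it. Among all IDR peaks, 17.1% had no summit within 100 bp in replicate 1, 2.97% in replicate 2 and 12.1% in replicate 3, and 24.9% were among the strongest 3295 of 1 replicate only, as this peak was.

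Nearer to ced-3, the pooled relaxed list had a summit 404 bp upstream (signal 14.0, rank 15720) and 1 in an intron 1767 bp inside the gene (signal 15.7, rank 13388). Within 500 bp of the 5' end, replicate 1 had no summit, replicate 2 had 1 at 420 bp upstream (rank 26081) and replicate 3 had 1 at 199 bp upstream (rank 17055). Over 500 bp inside ced-3, replicates 1, 2 and 3 had 2, 4 and 4 weak summits, the best of rank 17283, 20914 and 13709. Both pooled values were below the 45.7 of the weakest IDR peak.

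Among the 3 IDR peaks upstream of members, the ced-9 run peak ranked above those of the ced-4 run and of ced-3 in each of the 3 replicates. The peak at rpl-25.2, past the 3' end of cep-1, ranked beside it in replicate 1, at 200 against 202, and below it in replicates 2 and 3. The peaks of the ced-4 run and of ced-3 are not ordered in the same way throughout, since replicate 2 ranked them 2041 and 2000 while the other replicates put the ced-4 run first. In the plot of ranks by list, the ced-9 run peak stays in the upper part, and no summit at a member's own 5' end ranks better than 10701.

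**Figure D2:**
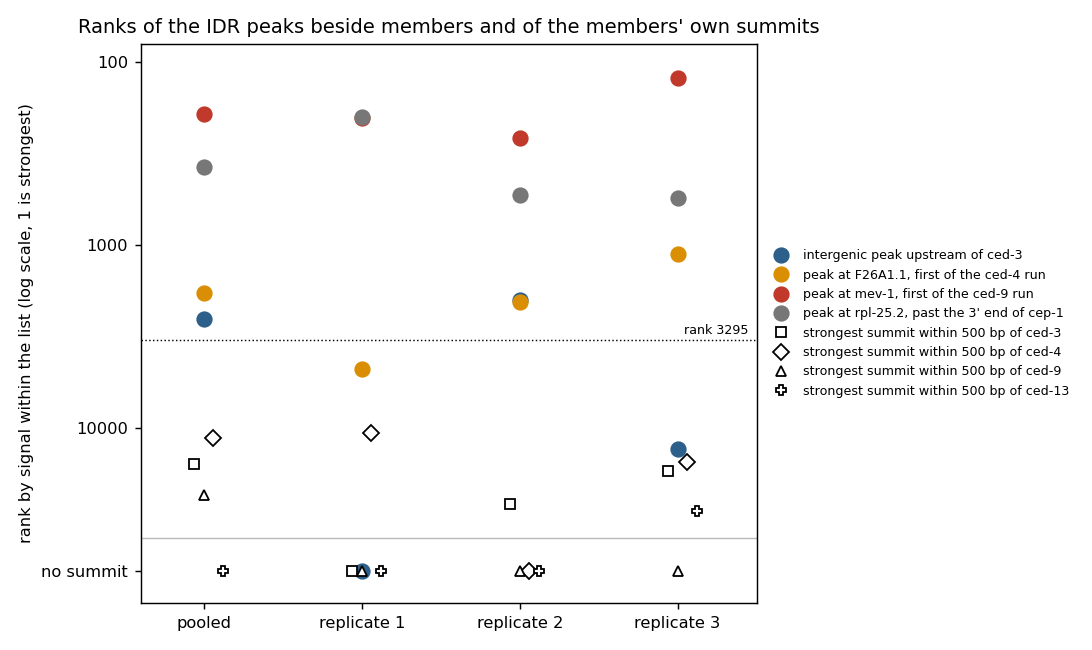
Rank by signal within each list (log axis, 1 is strongest and at the top) of the 4 IDR peaks beside members (filled circles) and of the strongest summit within 500 bp of 4 members (open symbols), with summits that were not found on the bottom line and rank 3295 as the dotted line. The ced-9 run peak ranked 192, 202, 262 and 123, the ced-3 peak was absent from replicate 1, and the best placed open symbol is at rank 10701.

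The BH3-only genes, which act as the triggers, were without DPL-1 summits in nearly every list. For egl-1 (WBGene00001170, V, 14431308 to 14432359, minus strand), the nearest summit in any list was 7052 bp from the 5' end, in replicate 1. The nearest IDR summit was 16978 bp away, and the pooled relaxed list had no summit in a stretch of 23575 bp around the 5' end. The corresponding stretches were 19114 bp in replicate 1, 23000 bp in replicate 2 and 19173 bp in replicate 3. For ced-13 (WBGene00000427, X, 8299119 to 8299654, minus strand), which starts 372 bp after the innexin gene inx-5 on the same strand, the nearest IDR summit was 12735 bp away. The pooled relaxed list had none over 77498 bp around it. The 5' end of inx-5 had no IDR peak either. A single weak summit stood out, in replicate 3, 228 bp upstream of ced-13 with a signal of 3.94 and rank 28207 of 30000, and neither of the other replicates had one there.

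Long stretches without summits are common in these lists. In the IDR list, 40.8% of all protein-coding genes lay farther from the nearest summit than egl-1 did and 48.6% lay farther than ced-13, and in the pooled relaxed list 29.6% lay farther than either gene. The median distance over all genes was 12065 bp in the IDR list and 2589 bp in the pooled relaxed list. By contrast, ced-9 (1022 bp), ced-3 (1923 bp) and ced-4 (1953 bp) were nearer to an IDR summit than 85.2%, 81.0% and 80.8% of all genes. In between, cep-1 (5511 bp) was nearer than 67.4% of all genes.

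**Figure D3:**
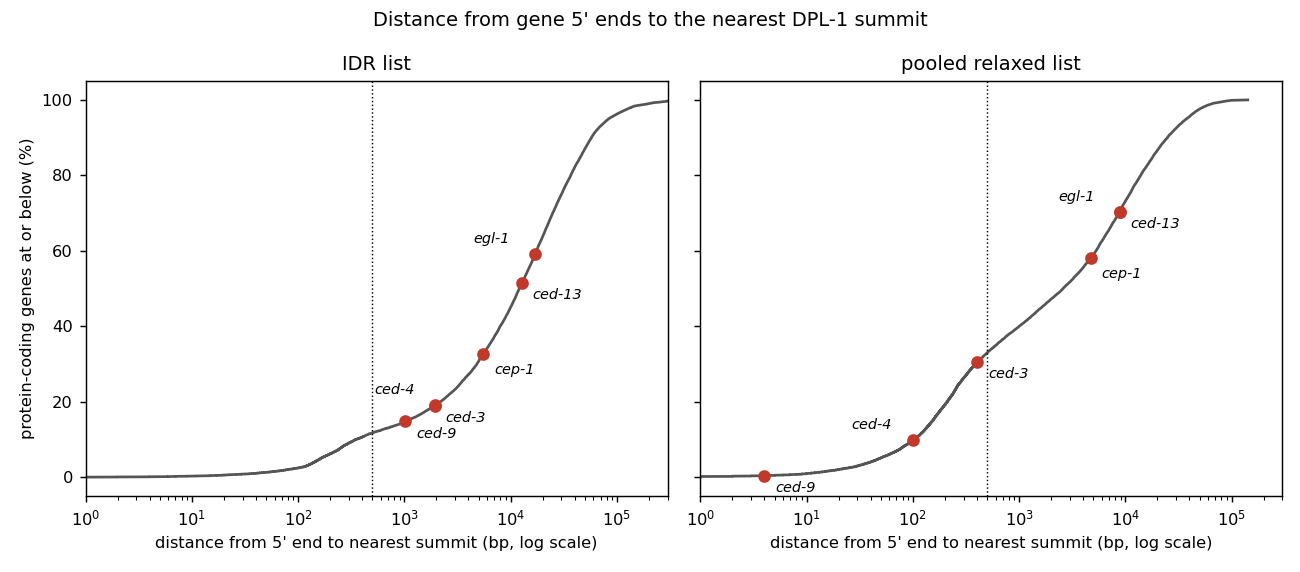
Share of the 19985 protein-coding genes (y axis, %) whose 5' end lies at or below a given distance (x axis, bp, log scale) from the nearest summit, in the IDR list (left) and the pooled relaxed list (right), with the 6 genes as points and 500 bp as the dotted line. In the IDR list all 6 points lie right of the line, and in the pooled relaxed list ced-9, ced-4 and ced-3 lie left of it.

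The p53-like gene cep-1 (WBGene00000467, I, 8324286 to 8328859, plus strand) had no summit within 500 bp of its 5' end in any list, nor at any of its 4 annotated transcript starts in the IDR list. The nearest IDR summit was past the other end of the gene, 938 bp beyond the 3' end and 5511 bp from the 5' end. It lay 150 bp upstream of rpl-25.2, named rpl-23A.2 by RefSeq, a gene of the large ribosomal subunit that runs towards cep-1. This peak (I, 8329698 to 8329896) had a signal of 211 and rank 376, and ranked 200, 531 and 554 in replicates 1, 2 and 3. It was thus stable across replicates, with summits within 14 bp of each other, but sits at the start of another gene. Inside cep-1, replicate 2 had 1 summit (rank 13807) and replicate 3 had 2 (ranks 16169 and 21933), and the pooled relaxed list had none.

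With 6 genes, the counts of relaxed summits at the members' own 5' ends cannot show whether the members differ from other genes. In the pooled relaxed list 3 of the 6 genes had one (ced-3, ced-4 and ced-9), beside 33.0% of all genes. In the single replicates it was 1 of 6 in replicate 1 (ced-4) beside 33.0%, 1 of 6 in replicate 2 (ced-3) beside 34.7%, and 3 of 6 in replicate 3 (ced-3, ced-4 and ced-13) beside 36.0%. No member had such a summit in all 3 replicates. Of the 6594 genes with a pooled relaxed summit at the 5' end, 66.4% had a stronger one than ced-4, 76.5% than ced-3 and 90.5% than ced-9. Inside the gene body, 2 of the 6 had a pooled relaxed summit (ced-3 and ced-9), beside 28.8% of all genes.

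The motifs near the peaks were counted on both strands. An E2F-like motif (spelled TTCCCGC, or with the middle bases changed TTCGCGC, and likewise also TTGCCGC, and as the last form TTGGCGC) was present within 50 bp of 14.5% of all IDR summits and in 9.20% of all promoters, taken as 250 bases before to 50 bases after each 5' end. It was in none of the 4 IDR peaks beside members, over the whole peak, and in none of the 6 members' promoters. With shares this low, finding none in 4 peaks and 6 promoters does not set the members apart. The 4 peaks, 199 to 304 bp wide, are longer than the windows of 50 bp to each side of a summit. No share over all IDR peaks was taken for whole peaks. The CHR element was within 50 bp of the summit in 3 of the 4 peaks, all but that at rpl-25.2, against 26.3% of all IDR summits. Over the whole peak, that at rpl-25.2 also held 2 CHR matches, which start 63 and 84 bp from its summit. At the ced-9 run peak the match starts 8 bp from the summit. In the promoters of ced-3, ced-4, egl-1 and cep-1 there was 1 CHR match each, and 68.9% of all promoters hold at least 1. The E2F-like letters read backwards, which have the same base composition and were found at 8.19% of IDR summits and in 5.49% of promoters, occurred once, in the ced-4 promoter. The counts over 4 peaks are a description, and a match is not a bound site.

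The genes whose IDR peaks at the 5' end ranked most like the ced-9 run peak were sought over 1881 genes with a peak matched in every replicate. By the sum of absolute differences in log10 rank over the 3 replicates they were Y73B6BL.29 (sum 0.137, ranks 203, 303 and 145), dot-1.1, a homologue of the histone methyltransferase DOT1 (0.152, ranks 164, 254 and 110), and F25H2.6 (0.200, ranks 240, 283 and 152).

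Some genes that act around the core pathway had IDR peaks at their own 5' ends. Over 5 lists of such genes, drawn up from textbook roles with earlier results of these data known, 17 of 72 had one. That is 23.6% (exact binomial interval 14.4 to 35.1, which covers counting only), beside the 11.8% of all genes. The interval is no test, since the lists were drawn up with those results known. Whether the lists, together or singly, differ from all genes was not tested. With peaks required among the strongest 3295 of both remaining replicates, leaving out 1 replicate gave 10 to 12 of 72, beside 6.28 to 7.58% of all genes. The median signal over all genes with such a peak was 102.

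Among regulators of germline apoptosis, 7 of 24 had a peak (29.2%, beside 11.8% of all genes), with a median signal of 172. The strongest was at efl-1, which encodes an E2F partner of DPL-1, followed by the retinoblastoma-like gene lin-35 (signal 466, 166 bp upstream, ranks 342, 66 and 85 in replicates 1 to 3, also within 500 bp of vps-51) and chk-1, a DNA damage checkpoint kinase (signal 292, 243 bp upstream, ranks 393, 193 and 225). The efl-1 peak had a signal of 773 and ranks of 59, 24 and 40. The list also holds dpl-1 itself, and its other genes with peaks, named after their values were seen, were the damage kinase gene atm-1 (its peak also within 500 bp of F56C11.3), the recombinase gene rad-51 and the checkpoint clamp gene mrt-2.

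A further list was grouped as regulators of egl-1 transcription in the soma, without a check that each gene acts on egl-1. Of its 16 genes, 4 had a peak (25.0%, beside 11.8% of all genes), with a median signal of 64.1. They were dnj-11, a chaperone of the DNAJ type (signal 220, 258 bp upstream, ranks 362, 344 and 677), the kinase gene pig-1 (signal 69.6, ranks 3768, 1725 and 20155), eor-1, which encodes a zinc finger protein (signal 58.5, ranks 24938, 1952 and 8522), and its partner gene eor-2 (signal 54.8), named after its value was seen. Only the dnj-11 peak was among the strongest 3295 of all 3 replicates, and its summit also lay within 500 bp of F38A5.2.

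Downstream of the caspase, peaks were at 2 of 13 engulfment genes (15.4%) and 3 of 11 genes for degrading the DNA of dead cells (27.3%). The share over all genes was 11.8%, and counts this small do not set either list apart. The engulfment genes were ced-5, whose product acts with CED-12 in corpse uptake (signal 91.9, 184 bp upstream, ranks 2197, 1890 and 1280, also within 500 bp of F01D4.5), and the dynamin gene dyn-1 (signal 81.6, 417 bp upstream, ranks 2657, 1755 and 1492). Both ranked in the strongest 3295 of every replicate. The nuclease genes were crn-1 (signal 206, 423 bp upstream, ranks 1059, 319 and 509), crn-4 (signal 88.7) and crn-7 (signal 66.0, 3 bp downstream, also within 500 bp of F09G8.7), of which crn-4 missed the strongest 3295 in replicates 1 and 3 and crn-7 in replicate 2. Among the other caspase genes and proteins tied to the BCL-2 step, 1 of 8 had a peak (12.5%), close to the 11.8% of all genes. It was icd-1 (signal 278, 432 bp upstream, ranks 139, 282 and 335), which encodes a subunit of the nascent polypeptide-associated complex. The caspase-like genes csp-1, csp-2 and csp-3, named after their values were seen, had none.

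**Figure D4:**
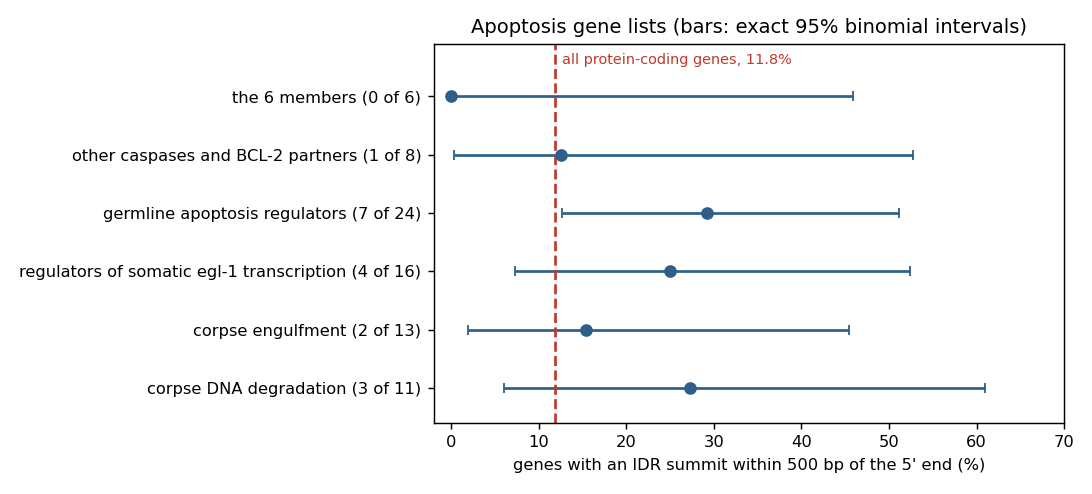
Share of genes with an IDR summit within 500 bp of the 5' end (x axis, %) for the 6 members and 5 lists of genes around them, with exact 95% binomial intervals as bars and the share over all protein-coding genes, 11.8%, as the dashed line. The members are at 0 of 6 and the lists between 12.5% and 29.2%, with wide intervals that cover counting only and are no test of lists chosen with earlier results known.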

How the data were processed

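ChIP-seq of GFP-tagged DPL-1 was deposited as peak lists for 3 replicates of 1 group. Per the text deposited with each sample, the authors made relaxed lists of peaks and background regions from each replicate and from the pooled reads, using 1 further file beside the alignments, and derived the IDR list from these. The signal column is the authors' peak strength as deposited. Its scale is not stated and differs from list to list, and signals were therefore compared only inside 1 list. The sources used here name no aligner or peak caller and give no read numbers, so the depth is unknown.

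The 5 ce11 lists were used (28383 peaks in replicate 1 and 30000 each in replicates 2, 3 and the pooled list), and the 5 ce10 lists were not. Genes came from Ensembl release 115 and sequence from RefSeq, both WBcel235, the build named ce11, in 1-based coordinates. Summits were joined to genes in Python 3.11.15 with pandas 2.3.3, and the join was tested on simulated data. The 5' end is the start of the gene record, which in this worm is often a trans-splice site or start codon rather than the start of transcription. A replicate's summit matched an IDR peak within 100 bp. Genes of piRNAs, a class of small RNA, were left out when a summit was placed in sequence with no annotated gene. A run allowed gaps under 500 bp and overlaps up to 100 bp. IDR peaks carry the pooled list's signal and rank. With 1 group, no test between groups was made. The members and lists were chosen with earlier results of these data known. Named genes were the 6 members, genes sharing their peaks or runs, up to 3 genes per list by signal, and the 3 genes nearest in rank to the strongest peak beside a member. Other genes are named as such. No member had an IDR peak of its own, so that peak was taken as the one heading its run.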

Additional observations from a re-analysis of the deposited data

How the results depend on the processing

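The count of members with an IDR peak at the 5' end was 0 with 500 bp replaced by 1000 bp. It was also 0 with any base of the peak or any transcript start. In that order these settings call 14.7%, 12.6% and 12.4% of all genes, beside 11.8% at 500 bp, so they could have raised the count. The count was again 0 with 250 bp, with the nearest gene only and with the stronger 50% of IDR peaks. So it was with those among the strongest 3295 of all 3 replicates, and without each replicate in turn (range 0 to 0). These last settings only take calls away, so a count already at 0 could not move. Judged at the first gene of the run the count was 2. The body count was 2 in the pooled relaxed list. Over the whole gene record it was 0, which follows from the 0 at 5' ends and the 0 further inside. Without each replicate it was 0 (0 to 0), where calls could again only be lost. Members with a pooled relaxed peak numbered 2 at 250 bp, 3 at 1000 bp, and 0 among the strongest 3295 pooled peaks, which are fewer by construction. That 0 is no separate check, because the IDR peaks beside members had the same ranks, 192, 376, 1840 and 2549, in both lists. The nearest rather than the strongest pooled summit at ced-9 had signal 9.05.

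Over the 72 genes of the 5 lists, 17 had a peak within 500 bp (11.8% of all genes), 9 within 250 bp (7.71% of all genes) and 21 within 1000 bp (14.7% of all genes). Within 250 bp, a window that can hold fewer peaks, the counts were 4 for germline regulators, 3 for egl-1 regulators, 1 for engulfment, 1 for DNA degradation and 0 for caspases and BCL-2 partners, the last with 2 within 1000 bp. With 1 replicate left out and peaks required among the strongest 3295 of both others, 10 to 12 of the 72 remained, beside 6.28 to 7.58% of all genes. By list, 5 to 6 remained for germline regulators, 1 to 2 for egl-1 regulators, 2 to 2 for engulfment, 1 to 2 for DNA degradation and 1 to 1 for caspases. No paired analysis was possible because there is 1 group. Read depth and an input control, not analysed here, limit what an absent peak shows.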

Other observations

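Downstream of ced-9, 2 pooled relaxed summits stood just below the IDR threshold, whose weakest peak has a signal of 45.7. The first lay 2107 bp past the 3' end of ced-9, in sequence with no annotated gene (signal 43.9, rank 3448), and replicates 2 and 3 had summits within 100 bp of it at ranks 23935 and 5411, while the nearest in replicate 1, of rank 2208, was farther away. The second lay 160 bp past the 3' end and 165 bp upstream of ttr-15 (signal 39.1, rank 3966). Replicate 2 ranked it 2980 and replicate 3 had a summit of rank 16424 within 100 bp, while replicate 1 had none. By matches within 100 bp, the first was thus among the strongest 3295 peaks of no replicate and the second of replicate 2 alone. These values were singled out after they were seen.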
